A study of Mus musculus with 11 samples.

Results

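The 44 genes described here encode enzymes of central carbon metabolism in the mouse colon: 17 of glycolysis including lactate dehydrogenase, 4 of the pyruvate dehydrogenase complex, 15 of the tricarboxylic acid (TCA) cycle and its isozymes, 4 of the pentose phosphate pathway and 4 of gluconeogenesis. They were chosen by gene symbol, and each matched 1 of the 43346 genes of the count table. All 44 passed the filter on low counts, which kept 19863 genes. Colonic RNA came from male Swiss Webster mice aged 8 to 10 weeks, of which 5 were germ-free and 6 humanized. The humanized mice were raised germ-free, were given 300 μL of stool suspension from 1 healthy donor by gavage at 4 to 5 weeks of age, and were kept for another 4 to 5 weeks before the colon was taken. No genetic alteration is named for either group, both groups were kept in isolators on autoclaved diet, and because all humanized mice received the stool of 1 donor they represent that donor's microbiota only.

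Glycolysis splits glucose into pyruvate in the cytosol and yields ATP and NADH without oxygen, and lactate dehydrogenase converts pyruvate to lactate and back. The pyruvate dehydrogenase complex carries pyruvate into the mitochondrial TCA cycle, whose dehydrogenases feed electrons to the respiratory chain, and the pentose phosphate pathway branches from glucose 6-phosphate to make NADPH and ribose. In the colon, epithelial cells of the surface are known to oxidize butyrate made by gut bacteria through the TCA cycle, while cells of the crypt base rely more on glucose.

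Reads counted on genes lay between 49097005 and 64148538 per germ-free mouse and between 39125290 and 54219854 per humanized mouse, and the 44 genes took 0.755% to 0.848% of them in germ-free and 0.846% to 0.967% in humanized mice. Levels are RPKM (read counts scaled by gene length and library size) after TMM normalization. LFC is the log2 fold change of humanized over germ-free mice, and a gene was called when edgeR's exact test gave a Benjamini–Hochberg FDR below 0.01 over all 19863 genes. All 6 colon markers examined were tested, with a summed level of 3439 to 4893 RPKM in germ-free and 7923 to 12443 RPKM in humanized mice, most of it Car1 (2140 to 3736 and 6271 to 11125 RPKM). Car1 was the only colon marker called (LFC 1.34), and the median LFC of the 6 was 0.34. None of 6 pancreas and liver markers passed the filter. Markers of other cells moved with the groups. All 10 smooth muscle markers were lower in humanized mice (median LFC −1.86, summed RPKM 282 to 863 in germ-free and 38.3 to 300.2 in humanized mice), as were 5 of 6 fibroblast markers (median LFC −1.44) and 7 of 8 markers of enteric neurons and glia (median LFC −1.87). Of 11 epithelial markers, 3 were higher and none lower (median LFC 0.23, summed RPKM 4200 to 5567 and 4709 to 6508). Higher in humanized mice were 4 of 6 B and plasma cell markers and 5 of 7 T cell markers, and 2 of 3 tested skeletal muscle markers were lower. No marker of myeloid cells, adipocytes or proliferation was called, but only 6 of 8 myeloid and 1 of 5 adipocyte markers were tested. No endothelial marker passed the threshold, but all 5 had an LFC below 0 (median −1.07), 4 of them without overlap and at an FDR of 0.0134 to 0.0171, and their summed level was 14.8 to 17.9 RPKM in germ-free and 1.86 to 13.8 RPKM in humanized mice. In whole tissue, fewer cells of a type and less RNA per cell cannot be told apart.

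The promoters of 3 genes are shown because they belong to the member that rose most, the member that fell, and the main lactate dehydrogenase gene of this tissue. They are RefSeq sequences of build GRCm38.p6, from 250 bases before to 50 bases after a transcription start, in the direction of the gene. Capitals mark matches on either strand to ACGTG, the core of the hypoxia response element, or to CACGTG, the E-box, which contains that core on both strands. The third motif searched, TGACNNNGC of the antioxidant response element, has no match in them.
Hk2 (chr6:82774405-82774704, minus strand): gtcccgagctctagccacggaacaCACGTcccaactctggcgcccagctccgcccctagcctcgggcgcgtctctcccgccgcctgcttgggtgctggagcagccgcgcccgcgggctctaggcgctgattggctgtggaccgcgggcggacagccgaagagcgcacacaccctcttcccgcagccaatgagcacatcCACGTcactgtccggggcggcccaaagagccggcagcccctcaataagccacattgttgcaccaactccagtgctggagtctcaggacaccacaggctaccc
Ldhb (chr6:142507908-142508207, minus strand): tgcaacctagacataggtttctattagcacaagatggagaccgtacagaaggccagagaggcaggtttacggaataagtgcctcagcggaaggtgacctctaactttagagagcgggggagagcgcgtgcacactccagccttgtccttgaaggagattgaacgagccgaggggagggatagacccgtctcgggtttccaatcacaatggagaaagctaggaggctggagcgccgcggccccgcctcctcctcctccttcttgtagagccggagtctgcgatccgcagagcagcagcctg
Ldha (chr7:46845554-46845853, plus strand, the upstream of 2 windows): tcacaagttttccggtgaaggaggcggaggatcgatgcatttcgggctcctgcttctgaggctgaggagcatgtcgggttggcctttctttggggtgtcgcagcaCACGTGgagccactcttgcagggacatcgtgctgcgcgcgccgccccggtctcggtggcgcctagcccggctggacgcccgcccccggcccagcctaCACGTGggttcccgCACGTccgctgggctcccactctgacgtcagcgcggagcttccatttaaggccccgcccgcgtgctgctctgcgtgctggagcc
The Hk2 window held 2 ACGTG cores, the Ldha window shown held 2 E-boxes and 1 further core, and the Ldhb window held none of the motifs. The second Ldha window (chr7:46846832-46847131), which is not printed, held none of them either. Across the 43 members with a promoter in the table, all but Idh3a, ACGTG was in a window of 17 (39.5%), against 21.8% of all 27025 genes and 27.5% of the 12289 tested genes with a promoter. CACGTG was in a window of 4 members (9.30%), against 8.09% of all genes and 10.9% of tested genes, and TGACNNNGC in a window of 11 members (25.6%), against 13.99% and 16.6%. Some genes have several windows. Counted by window, ACGTG was in 39.3% of the members' 61 windows and 19.6% of all 32851, CACGTG in 9.84% and 7.15%, and TGACNNNGC in 18.03% and 12.4%. A match describes the letters of the window only.

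Of the 44 genes, 30 were higher and 1 was lower in humanized mice, and 13 were not called. Over all tested genes, 9.2% were called higher and 10.1% lower. Most members are abundant, and among the 4444 tested genes with a mean of at least 50 CPM (counts scaled by library size), 21.7% were called higher and 4.52% lower. The member called lower, Ldhb, was not among these, at a mean of 6.61 CPM. The median LFC of the members was 0.41, against 0.01 over all tested genes, and 39 of the 44 had an LFC above 0. The RPKM of the groups did not overlap for 25 members, which was so for 18.4% of all tested genes. Hk2 had the highest LFC and Ldhb the lowest, and 28 of the 30 genes that rose lay between LFC 0.29 and 0.69, the other two being Hk2 and Fbp1.

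How far the whole set moved depended on how the libraries were scaled. Scaled to total counts, 15 members were called higher and 2 lower, with a median LFC of all genes of −0.18. Over all tested genes, 3.89% were called higher and 18.2% lower with that scaling. When libraries were scaled to the summed counts of the 11 epithelial markers, the median LFC of all genes became −0.23, and that of the members 0.17, which was 0.40 above all genes. With that scaling 5 members were called higher, namely Hk2, Gpi1, Gapdh, Eno1 and Aldoa, and 2 lower, namely Ldhb and Aldoc, while 2.62% of all tested genes were called higher and 14.3% lower. The LFC of 33 of the 44 members was still above 0. No member of the pyruvate dehydrogenase, TCA cycle, pentose phosphate or gluconeogenesis groups was called with the epithelial scaling.

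**Figure D1:**
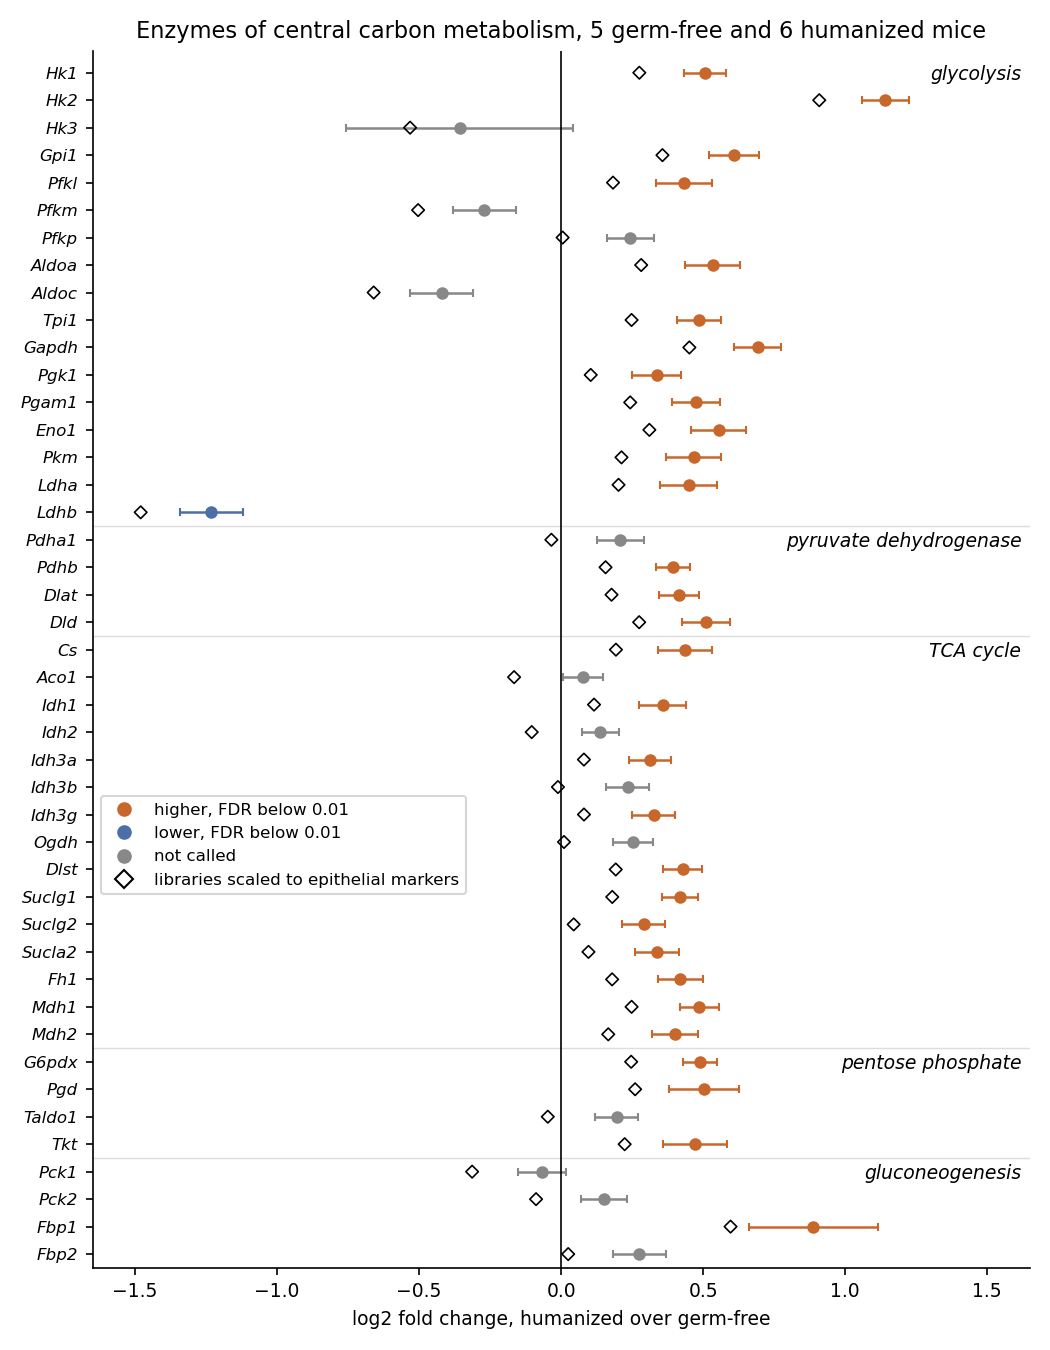
LFC of humanized over germ-free mice for each of the 44 genes, grouped by pathway; filled points are the fit with TMM normalization, bars are ± 1 standard error, and open diamonds are the LFC with libraries scaled to 11 epithelial markers. Hk2 at 1.14 and Ldhb at −1.23 are the extremes, and the diamonds lie to the left of the points throughout.

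Glycolysis begins with hexokinase, which traps glucose in the cell as glucose 6-phosphate. Hk2, the inducible hexokinase, was at 6.35, 8.37, 6.59, 5.91 and 7.08 RPKM in germ-free mice 1 to 5, and at 14.2 to 16 RPKM with a median of 15.3 in the 6 humanized mice. The lowest humanized mouse was 1.70 times the highest germ-free mouse. The LFC of Hk2 was 1.14 (SE 0.082, FDR = 5.98e-31), a 2.21-fold increase. Hk1, the hexokinase found in most tissues, was at 8.98, 11, 10.9, 9.48 and 11.4 RPKM in germ-free mice and at 13.6 to 16 RPKM (median 14.5) in humanized mice, again without overlap (LFC 0.51, SE 0.074, FDR = 1.79e-07). Hk3, a hexokinase of leukocytes, was the lowest of the set at 0.161 to 0.422 RPKM in germ-free and 0.0457 to 0.378 RPKM in humanized mice and was not called (LFC −0.36, SE 0.40, FDR = 0.578).

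The next steps turn glucose 6-phosphate into triose phosphates. Gpi1, glucose 6-phosphate isomerase, was at 64.8, 69.7, 66.7, 63.4 and 68.4 RPKM in germ-free mice and at 82.3 to 115 RPKM (median 107) in humanized mice (LFC 0.61, SE 0.089, FDR = 1.92e-08). Its germ-free values spread little, and the lowest humanized mouse was 1.18 times the highest of them. Pfkl, the liver-type subunit of phosphofructokinase, which commits sugar to glycolysis, was at 40.1, 48.2, 43.3, 41.2 and 45.5 RPKM in germ-free mice and at 48.2 to 70.6 RPKM (median 59.3) in humanized mice (LFC 0.43, SE 0.097, FDR = 0.000475). Its groups only just separated. The other subunits of phosphofructokinase were not called, with an LFC of −0.27 (FDR = 0.125) for the muscle type, Pfkm, and 0.24 (FDR = 0.0346) for the platelet type, Pfkp. Aldoa, the main aldolase, was at 171, 189, 194, 185 and 188 RPKM in germ-free mice and at 207 to 306 RPKM (median 282) in humanized mice (LFC 0.53, SE 0.097, FDR = 6.65e-06). Aldoc, the aldolase best known from brain, had an LFC of −0.42 (SE 0.11) and an FDR of 0.0115, just above the threshold, although its 5 germ-free mice at 3.52 to 5.46 RPKM and its 6 humanized mice at 2.83 to 3.45 RPKM did not overlap. Tpi1, triose phosphate isomerase, was at 128, 154, 148, 141 and 156 RPKM in germ-free mice and at 180 to 223 RPKM (median 209) in humanized mice (LFC 0.49, SE 0.077, FDR = 5.93e-07).

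The steps from glyceraldehyde 3-phosphate to pyruvate, which give ATP and NADH, rose at every enzyme of the set. Gapdh, glyceraldehyde 3-phosphate dehydrogenase and a common reference gene in expression work, was at 23.4, 25.7, 28.9, 27.7 and 28.7 RPKM in germ-free mice and at 37.3 to 49.9 RPKM (median 42.5) in humanized mice. Its LFC of 0.69 (SE 0.082, FDR = 8.21e-12) was the second highest of glycolysis. Pgk1, phosphoglycerate kinase, which makes ATP, was at 24.6, 28.7, 31.6, 29.4 and 32.0 RPKM in germ-free mice and at 33.2 to 44.2 RPKM (median 36.0) in humanized mice (LFC 0.34, SE 0.086, FDR = 0.00332). This was the weakest rise of glycolysis. Pgam1, phosphoglycerate mutase, was at 51.4, 62.8, 59.9, 61.9 and 69.8 RPKM in germ-free mice and at 73.8 to 94.6 RPKM (median 87.2) in humanized mice (LFC 0.48, SE 0.085, FDR = 1.18e-05). Eno1, enolase, was at 15, 17.1, 18.9, 17.4 and 18.9 RPKM in germ-free mice and at 21.2 to 29.8 RPKM (median 24.9) in humanized mice (LFC 0.55, SE 0.096, FDR = 4.22e-06). Pkm, the pyruvate kinase of tissues other than liver and red cells, was at 157, 171, 180, 176 and 173 RPKM in germ-free mice and at 185 to 271 RPKM (median 239) in humanized mice (LFC 0.47, SE 0.098, FDR = 0.000123). In none of these genes did a humanized mouse fall as low as a germ-free one.

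Gapdh, Pgk1, Pgam1 and Eno1 have processed pseudogenes and near copies in the mouse genome. In GENCODE M21, 53.0% of the 101-base stretches of the Gapdh coding transcripts, 67.0% of those of Pgk1, 39.7% of those of Pgam1 and 39.3% of those of Eno1 also occur in transcripts of other annotated genes, whereas 27 of the 44 members share no such stretch. How reads with several matches were counted is not given in the sources used here, so the levels of these 4 genes are uncertain.

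Lactate dehydrogenase is a tetramer of A and B subunits, and the A subunit is the form known for turning pyruvate into lactate. Ldha had the highest level of the set, at 206, 246, 234, 225 and 244 RPKM in germ-free mice and at 270 to 378 RPKM (median 307) in humanized mice (LFC 0.45, SE 0.099, FDR = 0.000237). Ldhb, the B subunit typical of heart, was the only member that fell. It was at 6.74, 6.27, 6.49, 5.48 and 5.68 RPKM in germ-free mice and at 2.19 to 3.13 RPKM (median 2.64) in humanized mice. The groups were far apart, with an LFC of −1.23 (SE 0.11, FDR = 8.78e-15). Of all mice, germ-free mouse 4 had the highest summed level of smooth muscle markers, at 863 RPKM, and the lowest Ldhb of its group, at 5.48 RPKM. Among humanized mice, mouse 6 had the highest and mouse 5 the lowest sum of these markers, at 300.2 and 38.3 RPKM, and their Ldhb was 2.73 and 2.35 RPKM. The part of the smooth muscle, fibroblast and nerve cell markers in the fall of Ldhb was not tested.

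**Figure D2:**
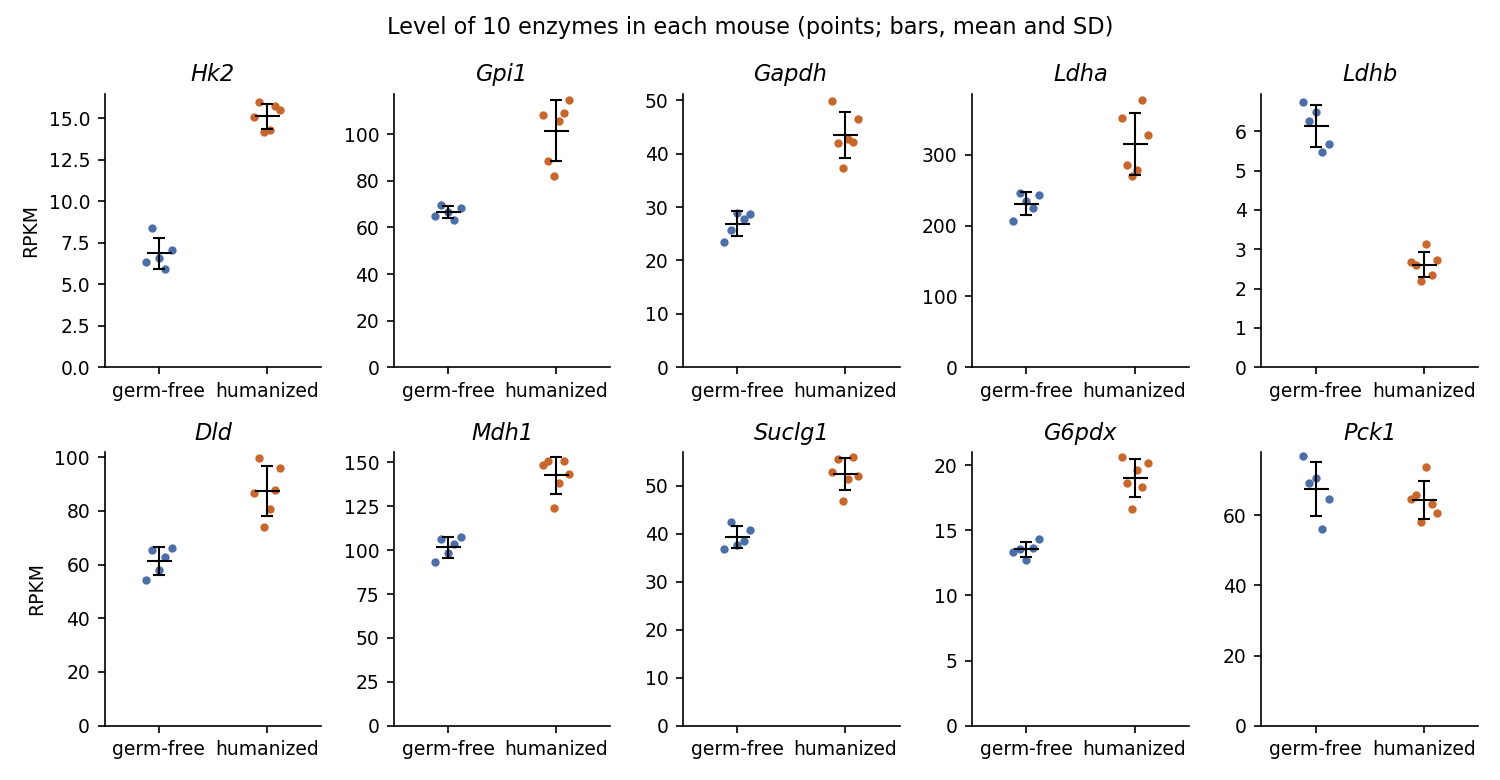
RPKM of 10 enzymes in each mouse, on axes that start at 0; points are mice, bars the mean and SD of 5 germ-free and 6 humanized mice. Hk2, Gpi1, Gapdh, Ldha, Dld, Mdh1, Suclg1 and G6pdx are higher and Ldhb is lower in every humanized mouse than in any germ-free mouse, while the groups overlap for Pck1.

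Ratios of isozymes or paired subunits were compared within each mouse, where the scaling between libraries cancels. Of 10 ratios, 5 had an adjusted p below 0.05 (exact permutation test over 462 splits of the mice, two-sided, Benjamini–Hochberg over the 10 ratios). Ldhb over Ldha showed the widest shift, from 0.0327, 0.0255, 0.0277, 0.0244 and 0.0233 in germ-free mice to between 0.00622 and 0.0113 (median 0.00824) in humanized mice. The difference of the mean log2 ratio was −1.67 (exact permutation p = 0.00433, the smallest p that 5 mice against 6 can give in this test, adjusted p = 0.0108). Hk2 over Hk1 rose from 0.707, 0.760, 0.607, 0.623 and 0.622 to between 0.939 and 1.14 (median 1.02), a log2 difference of 0.64 (exact permutation p = 0.00433, adjusted p = 0.0108). The size of this ratio depends on the deposited lengths, which were 1.99 times the longest coding transcript for Hk1 and 1.08 times for Hk2, whereas the shift between groups does not.

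For 2 other pairs the groups did not overlap either, and both ratios were lower in humanized mice. Aldoc over Aldoa went from between 0.0191 and 0.0289 in germ-free mice to between 0.0106 and 0.0137 in humanized mice, a log2 difference of −0.93, and Pfkm over Pfkl from between 0.0925 and 0.129 to between 0.0453 and 0.0913, a log2 difference of −0.71 (exact permutation adjusted p = 0.0108 for each). Fbp2 over Fbp1 was lower by a log2 difference of −0.56 with overlapping groups (exact permutation p = 0.0173, adjusted p = 0.0346). This call was lost without germ-free mouse 2, 3 or 5 or humanized mouse 1, 4, 5 or 6, with an adjusted p of 0.0529 to 0.0762 in the exact permutation test. The other five ratios had adjusted p from 0.0804 to 0.203 in the exact permutation test. Among them were Mdh1 over Mdh2, the cytosolic and mitochondrial malate dehydrogenases, at 0.963 to 1.11 in germ-free and 1.02 to 1.16 in humanized mice, and Sucla2 over Suclg2, the ATP- and GTP-forming subunits of succinyl-CoA ligase, at 0.227 to 0.253 and 0.240 to 0.267. The muscle and nerve markers given above were lower in humanized mice too, and their part in the ratios was not tested.

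**Figure D3:**
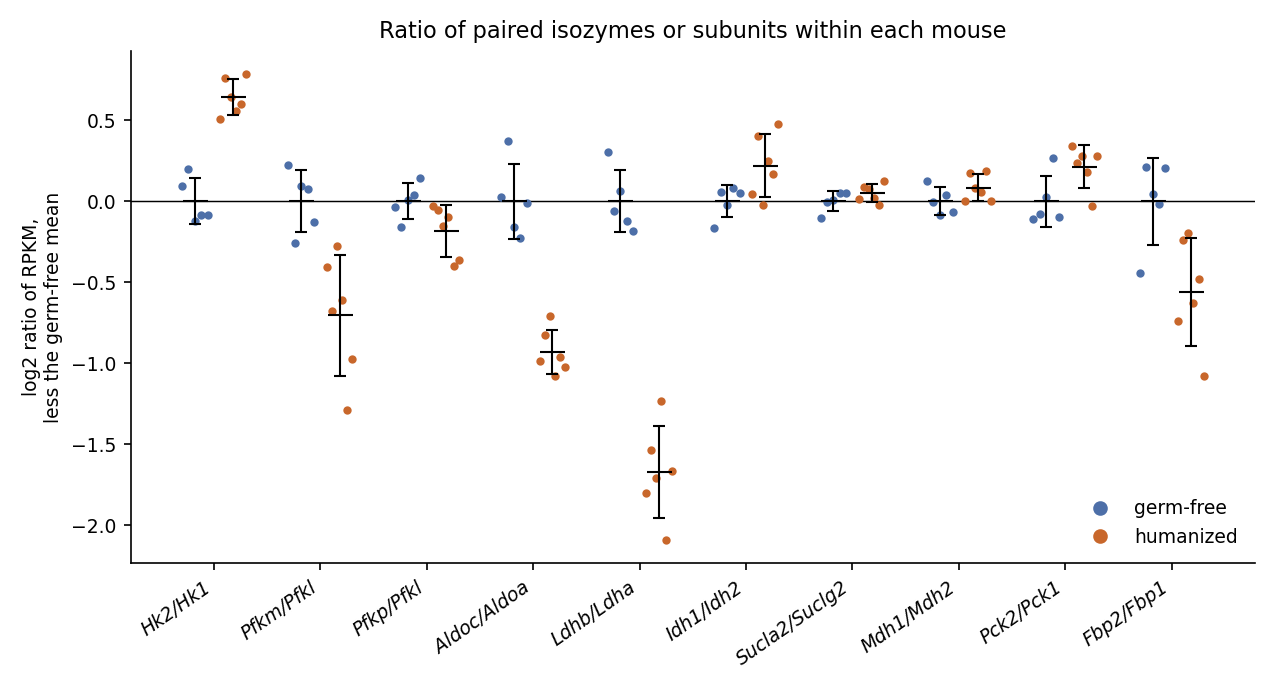
Log2 ratio of the RPKM of paired isozymes or subunits in each mouse, less the germ-free mean of that pair; points are mice, bars the mean and SD of 5 germ-free and 6 humanized mice. Hk2 over Hk1 lies above 0 and Pfkm over Pfkl, Aldoc over Aldoa and Ldhb over Ldha lie below 0 in every humanized mouse, with mean differences of 0.64, −0.71, −0.93 and −1.67.

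The pyruvate dehydrogenase complex turns pyruvate into acetyl-CoA, and 3 of its 4 subunits among the 44 genes rose, with no overlap of the groups. Pdhx, a further subunit outside these genes, was not called and its groups overlapped (LFC 0.21, FDR = 0.0745). Pdhb, the beta subunit of its E1 component, was at 42.5, 48.5, 43.9, 44.7 and 48.3 RPKM in germ-free mice and at 52.7 to 62.8 RPKM (median 61.3) in humanized mice (LFC 0.39, SE 0.059, FDR = 2.57e-06). Dlat, the E2 acetyltransferase, was at 10.2, 11.6, 11.2, 11.1 and 12.7 RPKM in germ-free mice and at 12.8 to 16.1 RPKM (median 15.6) in humanized mice (LFC 0.42, SE 0.071, FDR = 1.37e-05). Dld, the E3 dehydrogenase that the 2-oxoglutarate dehydrogenase complex shares, was at 54.2, 65.4, 58.2, 62.8 and 66.2 RPKM in germ-free mice and at 73.9 to 99.7 RPKM (median 87.2) in humanized mice (LFC 0.51, SE 0.084, FDR = 1.85e-06). Pdha1, the E1 alpha subunit whose phosphorylation switches the complex off, had an LFC of 0.21 (SE 0.082) and an FDR of 0.072. Its levels of 68.9 to 77.9 RPKM in germ-free and 68.2 to 93.3 RPKM in humanized mice overlapped.

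Of the 15 genes of the TCA cycle, 11 were higher and none lower, with a median LFC of 0.34. The entry enzyme Cs, citrate synthase, had an LFC of 0.44 (SE 0.095, FDR = 0.000277), and 1 humanized mouse at 130 RPKM lay below the highest germ-free mouse at 135 RPKM. Mdh1, the cytosolic malate dehydrogenase of the malate–aspartate shuttle, was at 93.2, 106, 98.2, 104 and 108 RPKM in germ-free mice and at 124 to 151 RPKM (median 146) in humanized mice (LFC 0.49, SE 0.068, FDR = 3.36e-08), the highest LFC of this group. Mdh2, which closes the cycle in the mitochondrion, was at 83.6, 104, 102, 99.0 and 110 RPKM in germ-free mice and at 115 to 146 RPKM (median 130) in humanized mice (LFC 0.40, SE 0.080, FDR = 0.000127). Suclg1, the alpha subunit common to both succinyl-CoA ligases, was at 36.9, 42.5, 37.7, 38.5 and 40.7 RPKM in germ-free mice and at 46.8 to 56.1 RPKM (median 52.4) in humanized mice (LFC 0.42, SE 0.062, FDR = 8.62e-07). The groups did not overlap for either malate dehydrogenase or for Suclg1.

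Dlst, the E2 subunit of 2-oxoglutarate dehydrogenase, was at 46.6, 55.7, 52.2, 54.8 and 58.0 RPKM in germ-free mice and at 66.0 to 80.2 RPKM (median 71.5) in humanized mice (LFC 0.43, SE 0.069, FDR = 3.22e-06). Ogdh, the E1 subunit of the same complex, had an LFC of 0.25 (SE 0.071) and an FDR of 0.0104, which just missed the threshold. Fh1, fumarase, was at 23.5, 27.9, 26.0, 26.8 and 29.1 RPKM in germ-free mice and at 29.2 to 39.4 RPKM (median 36.0) in humanized mice (LFC 0.42, SE 0.080, FDR = 6.40e-05), and its groups met almost end to end. Isocitrate dehydrogenase 3 works in the cycle as a complex of 3 kinds of subunit. Idh3a, its catalytic subunit, was at 37.8, 48.9, 44.3, 44.1 and 47.5 RPKM in germ-free mice and at 50.03 to 60.9 RPKM (median 55.8) in humanized mice (LFC 0.31, SE 0.074, FDR = 0.00212). Idh3g had an LFC of 0.33 (FDR = 0.00139) and Idh3b of 0.23 (FDR = 0.0271), so that 2 of the 3 subunits were called.

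Of the NADP-dependent isocitrate dehydrogenases, cytosolic Idh1 rose (LFC 0.36, SE 0.083, FDR = 0.00113) and mitochondrial Idh2 was not called, at 46.5 to 47.8 RPKM in germ-free and 45.1 to 57.5 RPKM in humanized mice (LFC 0.14, FDR = 0.190). The Idh1 over Idh2 ratio had a log2 difference of 0.22 (exact permutation p = 0.0563, adjusted p = 0.0804), so a difference in change between them was not shown. Sucla2 (LFC 0.34, FDR = 0.00106) and Suclg2 (LFC 0.29, FDR = 0.00480) rose with overlapping groups. Aco1, the cytosolic aconitase that doubles as an iron sensor, was among the least changed at 17.0 to 20.1 RPKM in germ-free and 16.5 to 21.2 RPKM in humanized mice (LFC 0.08, FDR = 0.547).

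In the pentose phosphate pathway 3 of 4 genes rose. G6pdx, the X-linked glucose 6-phosphate dehydrogenase that opens the pathway and makes NADPH, was at 13.4, 13.6, 12.7, 13.7 and 14.4 RPKM in germ-free mice and at 16.6 to 20.6 RPKM (median 19.1) in humanized mice. The lowest humanized mouse was 1.16 times the highest germ-free mouse, and the LFC was 0.49 (SE 0.061, FDR = 8.52e-09). Pgd, which makes NADPH in the third step, had an LFC of 0.50 (SE 0.12, FDR = 0.000991), with 16.8 to 23.9 RPKM in germ-free and 23.1 to 36.8 RPKM in humanized mice. Tkt, transketolase, which returns pentoses to glycolysis, was at 29.1, 33.3, 32.7, 31.9 and 35 RPKM in germ-free mice and at 35.8 to 58.3 RPKM (median 45.9) in humanized mice (LFC 0.47, SE 0.11, FDR = 0.000860). Taldo1, transaldolase, the most abundant of the 4, was not called at 137 to 164 RPKM in germ-free and 158 to 199 RPKM in humanized mice (LFC 0.19, FDR = 0.0720).

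The enzymes particular to gluconeogenesis gave 1 call among 4. Fbp1, the fructose bisphosphatase of liver and kidney, rose from 0.999 to 1.39 RPKM in germ-free to 1.21 to 3.20 RPKM in humanized mice (LFC 0.89, SE 0.23, FDR = 0.00360), with overlapping groups and a low level. This call was lost without germ-free mouse 2, 3, 4 or 5 or humanized mouse 1, 4 or 6 (FDR 0.0102 to 0.0184). Fbp2, the fructose bisphosphatase of muscle, was far more abundant, at 88.7 to 105 RPKM in germ-free and 92.6 to 137 RPKM in humanized mice, and was not called (LFC 0.28, FDR = 0.0301). Pck1, the cytosolic phosphoenolpyruvate carboxykinase, was at 77.0, 69.2, 70.7, 56.2 and 64.6 RPKM in germ-free mice and at 58.2 to 73.7 RPKM (median 64) in humanized mice (LFC −0.07, SE 0.084, FDR = 0.646). Its mitochondrial counterpart Pck2 had an LFC of 0.15 (FDR = 0.254).

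Summed over its genes, glycolysis stood at 926 to 1073 RPKM in germ-free and 1195 to 1593 RPKM in humanized mice, a 1.397-fold difference of the means. The sums for the TCA cycle (806 to 947 against 974 to 1210 RPKM) and the pyruvate dehydrogenase complex (176 to 203 against 208 to 267 RPKM) did not overlap either, whereas those of the pentose phosphate pathway (196 to 234 against 234 to 294 RPKM) and of gluconeogenesis (168 to 179 against 161 to 209.8 RPKM) did. With libraries scaled to epithelial markers the sum for glycolysis was 1.18-fold higher in humanized mice and remained without overlap, while the sums of the other pathways overlapped, at 1.08-fold for the TCA cycle and 1.09-fold for the pyruvate dehydrogenase complex. The sums were not tested.

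**Figure D4:**
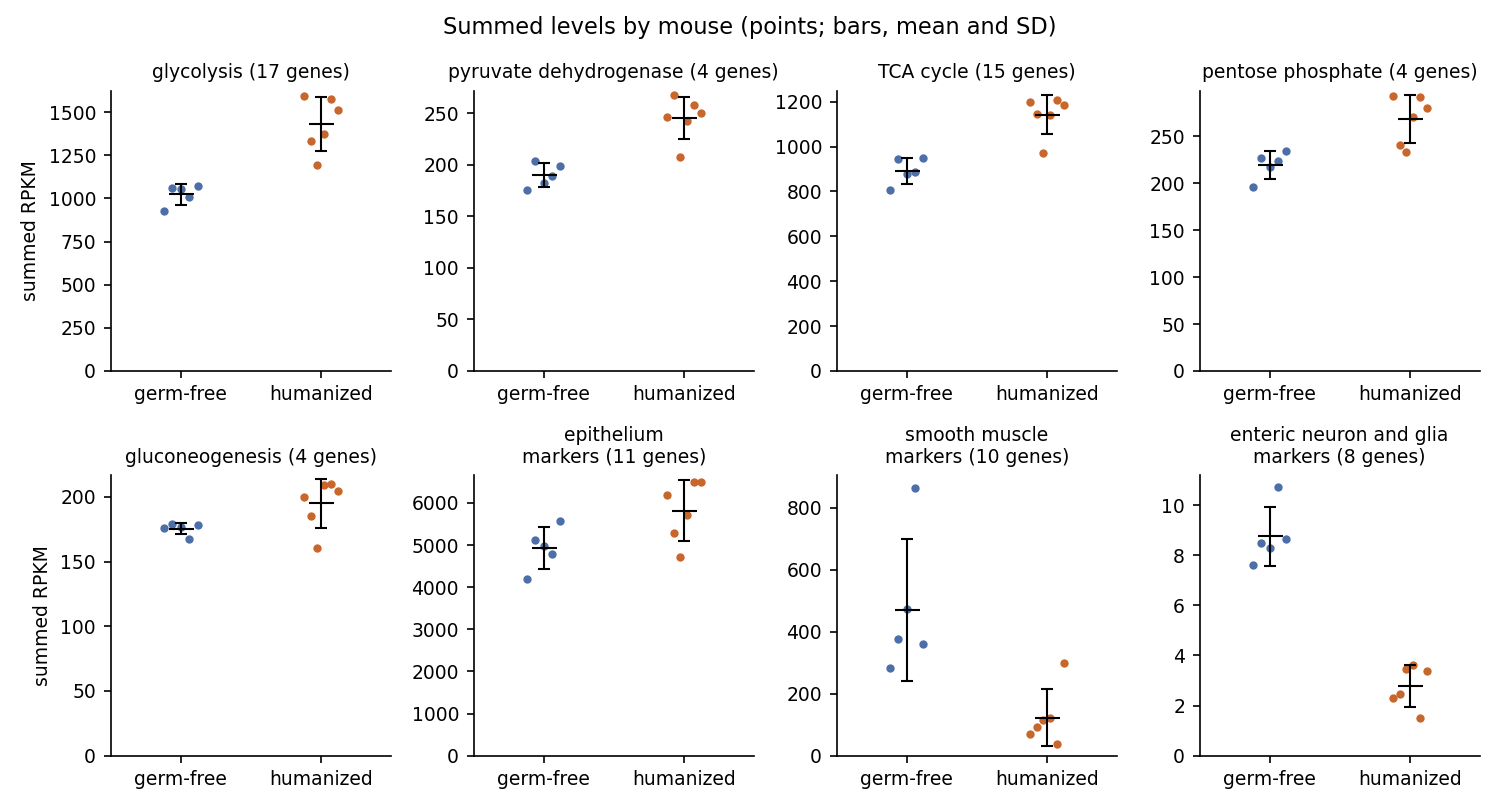
Summed RPKM by mouse for the 5 pathways and for the markers of epithelium, smooth muscle, and enteric neurons and glia, on axes that start at 0; points are mice, bars the mean and SD of 5 germ-free and 6 humanized mice. Glycolysis, the pyruvate dehydrogenase complex and the TCA cycle do not overlap between the groups, and the smooth muscle markers reach 863 RPKM in 1 germ-free mouse and 300.2 RPKM in 1 humanized mouse.

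In most members the same mouse was at the low end of its group. Humanized mouse 3 had the lowest level of its group in 37 of the 44 genes, and germ-free mouse 1 in 33. In all 7 genes that were called higher although the groups overlapped (Cs, Idh1, Idh3g, Suclg2, Sucla2, Pgd and Fbp1), the overlap came from humanized mouse 3 alone. That mouse also had the lowest summed level of epithelial markers among humanized mice, at 4709 RPKM, and germ-free mouse 1 the lowest of its group, at 4200 RPKM. The part of epithelial content in these levels was not tested. Without humanized mouse 3, 35 members were called higher, the additional genes being Fbp2 (FDR = 0.000558), Ogdh (FDR = 0.000843), Pfkp (FDR = 0.00438), Idh3b (FDR = 0.00606) and Pdha1 (FDR = 0.00709). Calls over all genes rose as well without this mouse, to 2088 higher (10.6%) and 2323 lower (11.8%).

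Calls near the threshold depended on single mice. Suclg2 was no longer called when any mouse but humanized mouse 3 was left out (FDR 0.0106 to 0.0234). Pgk1 lost its call without germ-free mouse 1, 2 or 4 or humanized mouse 1 (FDR 0.0101 to 0.0186), Idh3a without germ-free mouse 1, 3 or 4 (FDR 0.0104 to 0.0122), and Idh3g without germ-free mouse 1 (FDR = 0.0106). Aldoc, in turn, was called lower without germ-free mouse 4 (FDR = 0.00817) or without humanized mouse 5 (FDR = 0.00761). Of the 31 called members, 26 kept their call whichever mouse was left out.

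Per length, Ldha, Aldoa, Pkm, Tpi1 and Taldo1 were the most abundant members in humanized mice, at means of 315, 268, 237, 204 and 175 RPKM, and Hk3 was the least, at 0.225 RPKM. Ldha lay at percentile 99.3 of the tested genes and Ldhb at percentile 41.6. The ranges of neighbours in this order overlapped for the first 5, but within mice the order mostly held: Ldha exceeded Aldoa in 5 of the 6 humanized mice, and Aldoa exceeded Pkm, Pkm exceeded Tpi1 and Tpi1 exceeded Taldo1 in 6 of 6. The deposited lengths ran from 0.677 to 3.04 times the longest coding transcript of the gene in GENCODE M21, which moves levels between genes and leaves fold changes as they are.

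**Figure D5:**
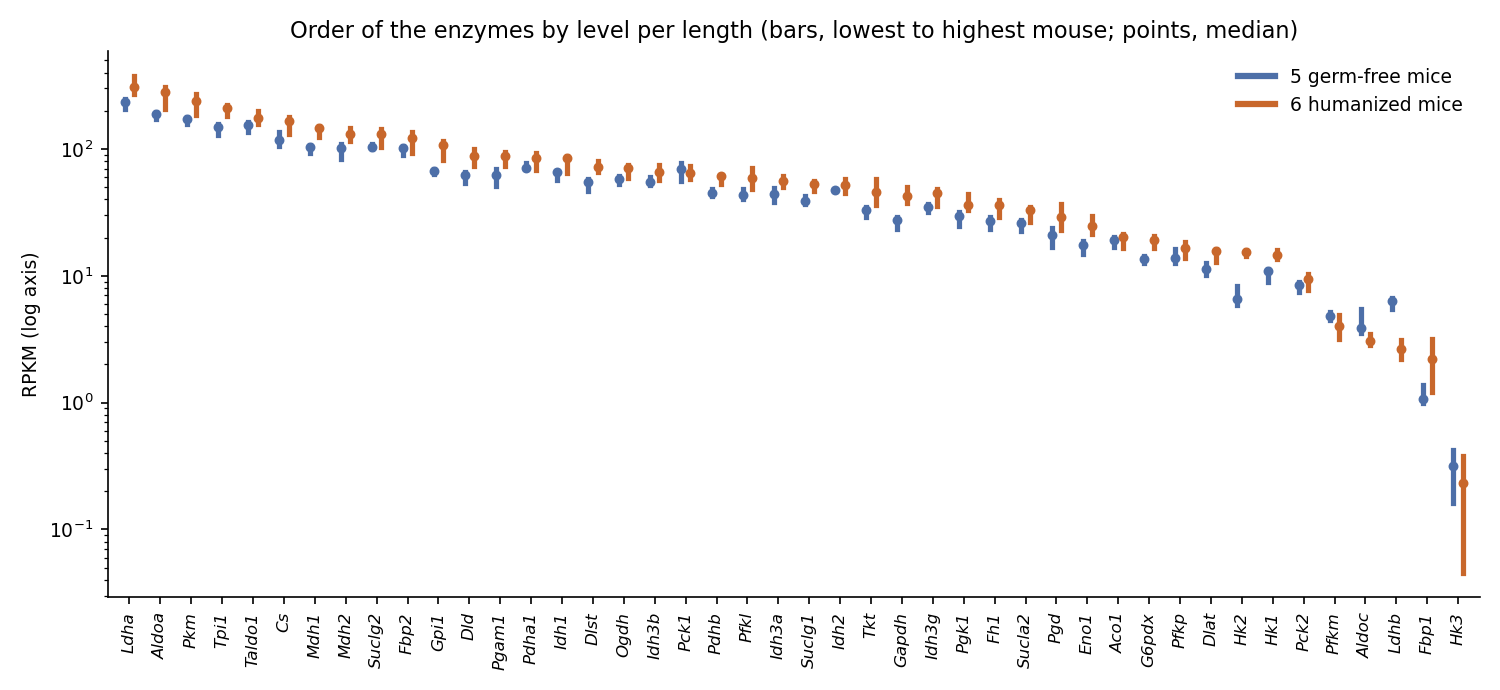
RPKM on a log axis for the 44 genes in the order of their mean in humanized mice; bars run from the lowest to the highest mouse, points are medians of 5 germ-free and 6 humanized mice. Ldha is first at a mean of 315 RPKM and Hk3 last at 0.225 RPKM, and Ldhb has its germ-free bar wholly above its humanized bar.

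Of 70 other genes of these pathways, 64 were tested, and 19 were higher and 3 lower in humanized mice, with a median LFC of 0.07. Over all tested genes, 9.2% were called higher and 10.1% lower. Among tested genes with a mean of at least 50 CPM, the shares were 21.7% and 4.52%. The counts by list below are to be set beside the same shares. Me1, cytosolic malic enzyme, which makes NADPH from malate, had the lowest FDR. It was at 7.69, 4.57, 6.83, 5.00 and 7.45 RPKM in germ-free mice and at 14.9 to 21.0 RPKM in humanized mice (LFC 1.55, SE 0.15, FDR = 6.46e-21). Pdk4, a kinase that switches pyruvate dehydrogenase off, was at 4.42 to 8.53 RPKM in germ-free and 12.7 to 23.0 RPKM in humanized mice (LFC 1.41, SE 0.21, FDR = 6.05e-09). Gpd1, of the glycerol phosphate shuttle, was at 9.27 to 14.6 and 19.8 to 25.3 RPKM (LFC 0.92, SE 0.11, FDR = 2.51e-12).

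Among the remaining glycolytic isozymes, 2 of 11 tested rose and 1 fell. Eno3, the enolase of muscle, rose from 4.91 to 9.03 RPKM in germ-free to 11.8 to 17.5 RPKM in humanized mice (LFC 1.10, FDR = 9.30e-10), and Bpgm, which makes 2,3-bisphosphoglycerate, rose from 8.71 to 10.7 RPKM to 12.5 to 16.3 RPKM (LFC 0.56, FDR = 2.60e-07). Eno2, the enolase of neurons, fell from 0.910 to 1.29 RPKM in germ-free to 0.157 to 0.888 RPKM in humanized mice (LFC −1.28, FDR = 0.000699). Pygm, the glycogen phosphorylase of muscle, fell from 1.19 to 2.33 RPKM in germ-free to 0.137 to 0.898 RPKM in humanized mice (LFC −1.50, FDR = 0.000592). Germ-free mouse 4 and humanized mouse 5, with the highest and lowest summed smooth muscle markers, had the highest and lowest Pygm, but humanized mouse 6, with the highest of these sums in its group, had the second lowest Pygm of its group at 0.415 RPKM. The part of muscle markers in the fall of Pygm was not tested. The third gene that fell was Me3, a mitochondrial malic enzyme (LFC −0.67, FDR = 0.00604).

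The subunits of succinate dehydrogenase, which links the TCA cycle to the respiratory chain, all rose. Sdhd was at 153 to 174 RPKM in germ-free and 189.9 to 257 RPKM in humanized mice (LFC 0.51, FDR = 3.28e-07). Sdhb was at 70.4 to 86.8 and 87.4 to 131 RPKM (LFC 0.44, FDR = 0.000397), and Sdhc at 32.1 to 37.6 and 39.5 to 51.4 RPKM (LFC 0.38, FDR = 0.000211). Groups did not overlap for these 3, and Sdha rose with overlapping groups (LFC 0.31, FDR = 0.00722). Of the regulators of glycolysis and of pyruvate dehydrogenase 2 of 12 were called, Pdk4 and Pdk3 (LFC 0.45, FDR = 0.00118). In glycogen and glucose release 2 of 11 tested rose. The gene with the symbol Pgm2 in the count table is a phosphoglucomutase on chromosome 4. It was at 24.996 to 27.2 RPKM in germ-free and 34.9 to 51.0 RPKM in humanized mice (LFC 0.73, FDR = 1.47e-11). Ugp2, which makes UDP-glucose, was at 70.0 to 78.9 and 81.8 to 113 RPKM (LFC 0.43, FDR = 0.0001). Of the other pentose phosphate genes, 1 of 7 tested rose, Rpe, ribulose phosphate epimerase (LFC 0.42, FDR = 0.000405). Pyruvate entry and anaplerosis gave 3 higher and 1 lower of 8, with Me2 (LFC 0.50, FDR = 0.00682) and Mpc2, a subunit of the mitochondrial pyruvate carrier (LFC 0.30, FDR = 0.00313), beside the genes named above. Of the NADH shuttles, 3 of 4 rose, namely Gpd1, Got1 (LFC 0.35, FDR = 0.00763) and Got2 (LFC 0.27, FDR = 0.00258), the aspartate transaminases.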

How the data were processed

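Colonic polyA RNA of 11 mice was sequenced with 101 bp paired-end reads. According to the methods and the submitters' processing notes, the authors converted base calls with bcl2fastq 2.17.1.14, aligned reads to mm10 with TopHat2 2.1.0 and Bowtie2 2.2.3, and counted them per gene with featureCounts of Subread 1.4.6-p5. The authors deposited these counts without normalization, with the length and position of each gene. The setting for strand and the treatment of reads with several matches are not given in the sources used here.

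Samples were grouped by their labels. Counts were filtered with filterByExpr (minimum count 10, minimum total 15, large n 10, minimum proportion 0.7), normalized by TMM and compared, as the methods state, by the exact test of edgeR, with p-values adjusted after Benjamini and Hochberg over 19863 genes and a threshold of 0.01 (edgeR 4.0.16, limma 3.58.1, DESeq2 1.42.0, R 4.3.3). A quasi-likelihood fit in edgeR gave the standard errors. RPKM used TMM-scaled libraries and the deposited lengths. Ratios were taken with a prior count of 0.5. Counts of a gene differed between mice of a group by more than counting noise, no pair of mice was alike enough to be 1 library, and intervals of counting error were not needed. The fit was tested on simulated data.

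The members, the lists of other pathway genes and markers, and the ratios were chosen with earlier results of these data known. Every member is named. For called members without overlap between groups, each germ-free value and the lowest, median and highest humanized value are given, and other pathway genes are named where called, the 10 of lowest FDR with levels. Results of some single genes outside the members are not reported here, nor are the counts of their lists. The values by mouse of Pck1, the levels of Eno2 and Pygm and the result of Pdhx, which was not called, were added after they were seen. Alternatives were the quasi-likelihood test, DESeq2, RLE, upper-quartile, total-count and epithelial-marker scaling, other filters, FDR below 0.05, leaving out each mouse, a replicate block and a prior count of 2. No sequencing batch is named in the labels or methods, so no comparison within batches was made. Promoters came from RefSeq, and shared stretches were counted in GENCODE M21, whose release need not be the one the counts used.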

Additional observations from a re-analysis of the deposited data

Results flagged for a closer look

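Levels of the 44 genes and the 10 ratios were examined in both groups for a mouse that stood apart from its group by Dixon's criterion. Of 108 groups of values, 3 held such a mouse, and chance gives about 1 in 20. The Pdha1 level of germ-free mouse 2 was 77.9 RPKM, above the next mouse at 71.5 RPKM. In humanized mouse 3, the Pdhb level was 52.7 RPKM, with the next lowest mouse at 59.5 RPKM, and the Dlat level was 12.8 RPKM, with the next lowest mouse at 14.95 RPKM. All 3 genes encode subunits of the pyruvate dehydrogenase complex. Pdhb and Dlat were called higher in humanized mice with and without this mouse.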

How the results depend on the processing

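Hk2, Gpi1, Gapdh, Eno1, Aldoa and Ldhb were called under all 8 alternative tests, scalings and filters and whichever of the 11 mice was left out. With the replicate block described below, Eno1 and Aldoa lost their call, and Hk2, Gpi1, Gapdh and Ldhb kept theirs. No call changed direction. Under total-count and epithelial-marker scaling the members called higher numbered 15 and 5 instead of 30, those of glycolysis called higher 5 with epithelial scaling instead of 12, those of the pyruvate dehydrogenase complex 1 and 0 instead of 3, of the TCA cycle 3 and 0 instead of 11, of the pentose phosphate pathway 1 and 0 instead of 3, and of gluconeogenesis 0 and 0 instead of 1. The log2 ratio of summed levels moved, in the same order, from 0.48 to 0.29 and 0.24 for glycolysis, from 0.37 to 0.18 and 0.13 for pyruvate dehydrogenase, from 0.36 to 0.17 and 0.12 for the TCA cycle, from 0.29 to 0.10 and 0.046 for the pentose phosphate pathway, and from 0.15 to −0.0378 and −0.0976 for gluconeogenesis. The cause was not tested. Members called lower numbered 2 instead of 1 with DESeq2, upper-quartile, total-count or epithelial scaling, at least 10 counts in every mouse, or FDR below 0.05, the second being Aldoc. For gluconeogenesis, calls numbered 0 with the quasi-likelihood test and 2 at FDR below 0.05. Over all genes, calls higher and lower went from 1827 and 1999 to 773 and 3609 with total counts and to 520 and 2840 with epithelial scaling.

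With single mice left out, 26 to 35 members were called higher and 1 to 2 lower (2 without germ-free mouse 4 or humanized mouse 5, all in glycolysis), and 0 to 2 of gluconeogenesis were higher. The log2 difference of Pfkp over Pfkl ran from −0.22 to −0.14, passing the threshold only without germ-free mouse 2, that of Pck2 over Pck1 from 0.19 to 0.28, passing without germ-free mouse 4 or humanized mouse 5, and that of Fbp2 over Fbp1 from −0.67 to −0.457, failing without germ-free mouse 2, 3 or 5 or humanized mouse 1, 4, 5 or 6. The replicate numbers name different animals, and deviations of mice with the same number correlated at −0.13 to 0.091. These correlations cannot show whether mice of the same number shared a batch or cage. With the replicate numbers as a block, the quasi-likelihood test called 9 members higher. These were 4 of glycolysis, 2 of the pyruvate dehydrogenase complex, 2 of the TCA cycle, 1 of the pentose phosphate pathway and 0 of gluconeogenesis. Over all genes, that test called 506 in each direction.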
